A study of Mus musculus with 4 samples.

Results

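The genes described here are *Nfe2l2*, which encodes the transcription factor NRF2, and 9 of its antioxidant target genes, *Nqo1*, *Hmox1*, *Gclc*, *Gclm*, *Txnrd1*, *Srxn1*, *Slc7a11*, *Gsr* and *Prdx1*. They were chosen by gene symbol, and all 10 were found among the 23924 genes of the matrix. Expression was measured by RNA-seq of polyadenylated RNA in 4 libraries of tail tip fibroblasts (TTFs) from male littermates, 2 labelled WT (+/+ in the study's methods) and 2 labelled TG (Tg2087/+). Both genotypes are from crosses of the line C57BL/6J-TgBAC8-2087. The TG cells carry the TgBAC8 transgene, sequence of the X-inactivation center (*Xic*) that holds *Xist*, with 2 copies inserted at a single autosomal site. Cells of both genotypes were immortalized with SV40 large T and are tetraploid, so every library, WT included, describes a transformed cell, and all were grown in a medium with the reducing agent 2-mercaptoethanol. The age of the mice is not given in the sources used here, nor whether libraries of the same genotype are from different mice. The p-values therefore measure the spread between these libraries, which may be technical.

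NRF2 is made continuously and, in unstressed cells, is bound by KEAP1 and handed to a CUL3 ubiquitin ligase for degradation. Oxidants and electrophiles modify KEAP1, NRF2 then accumulates, pairs with a small MAF protein and binds the antioxidant response element in the promoters and enhancers of its targets. These targets make and recycle glutathione, reduce thioredoxin and peroxiredoxins, reduce quinones and break down haem. Because NRF2 is controlled mainly through its stability, the mRNA of its targets is the usual readout of its activity, and the mRNA of *Nfe2l2* itself is a weak one.

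Values are FPKM, read numbers divided by gene length and by library size, so that levels can be compared between genes per length. TG was compared with WT by limma on log2(FPKM + 0.5) over the 11524 genes whose FPKM averaged 0.5 or more, and p-values were adjusted over all of them by the Benjamini-Hochberg method. For a single gene, an exact two-sided permutation of the 4 libraries has 0.333 as its smallest possible p. In bulk RNA, fewer cells that express a gene and less RNA per cell cannot be told apart. The libraries held between 9465712 and 14639946 reads, with WT 2 the deepest. *Xist*, the check of the genotype, had 0 and 0.108 FPKM in the WT libraries and 2.31 and 2.28 FPKM in the TG libraries. Of 10 fibroblast markers, 7 had a mean FPKM of at least 1, with *Vim* the highest, while *Lum* was listed at 0 in all 4 libraries and *Dcn* did not exceed 0.878 FPKM. The summed level of these markers ran from 5596 to 6007 FPKM in WT and from 5192 to 5642 FPKM in TG. Of the 8 tested, 2 fell by limma at an adjusted p under 0.05, beside 1.54% of all tested genes. These were *Pdgfrb* (adjusted p = 0.0165) and *Col1a1* (adjusted p = 0.0491), with an adjusted p under 0.05 in 8 and 5 of the 14 alternatives. By voom *Col1a2* also fell (log2 fold change -0.70, adjusted p = 0.00832), as did *Pdgfrb* and *Col1a1* (adjusted p = 0.000144 and 0.000252), beside 4.4% of all tested genes. *Pdgfra* went the other way, with 0.0999 and 0.307 FPKM in WT, and 0.823 and 1.13 in TG (adjusted p = 0.218 by limma and 0.0314 by voom). Among the 8 tested markers 5 were lower and 2 higher in TG without overlap, beside 20.3% and 30.2% of all tested genes. The part of this in the results below was not tested. The macrophage markers *Ptprc* and *Adgre1*, the keratinocyte markers *Krt5* and *Krt14*, and the erythroid marker *Hba-a1* were listed at 0 in all 4 libraries. Summed macrophage markers, mostly *Cd68*, ran from 8.95 to 12.3 FPKM in WT and from 5.21 to 11.4 in TG, and the keratinocyte, endothelial, skeletal muscle and melanocyte sums did not exceed 2.46, 0.567, 0.435 and 0.239 FPKM.

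*Srxn1*, *Nqo1*, *Prdx1* and *Txnrd1* were higher in each TG library than in either WT library, a pattern of 30.2% of all tested genes. Between the genotype means the ratio was 1.84 for *Srxn1*, 1.84 for *Nqo1*, 1.55 for *Prdx1* and 1.07 for *Txnrd1*. *Nfe2l2* itself, the glutathione synthesis genes *Gclc* and *Gclm*, the reductase *Gsr*, and *Hmox1* overlapped between genotypes, with a ratio of TG to WT means from 0.865 to 1.10. At an adjusted p under 0.05, 1 of the 9 tested genes rose (*Srxn1*) and 0 fell, beside 2.59% of all tested genes that rose and 1.54% that fell, 4.13% in either direction. Over all genes the split of 298 higher and 178 lower calls depended on the scaling, at 231 and 200 with upper-quartile scaling, 208 and 203 with quantile normalization, 150 and 190 with the length trend described below removed, and 413 and 507 with voom on reads. At the stricter thresholds of the study (adjusted p under 0.01, change of 2-fold or more), 0 of the 9 were called by limma and 0 by limma's voom method on reads, beside 1.08% of all tested genes by limma. At an unadjusted p under 0.05 there were 3 by either method, where 19.6% of all tested genes reached that level by limma. The median log2 fold change of the 9 was 0.11, beside 0.07 for all tested genes. *Slc7a11* was below the mean FPKM that the test required.

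**Figure D1:**
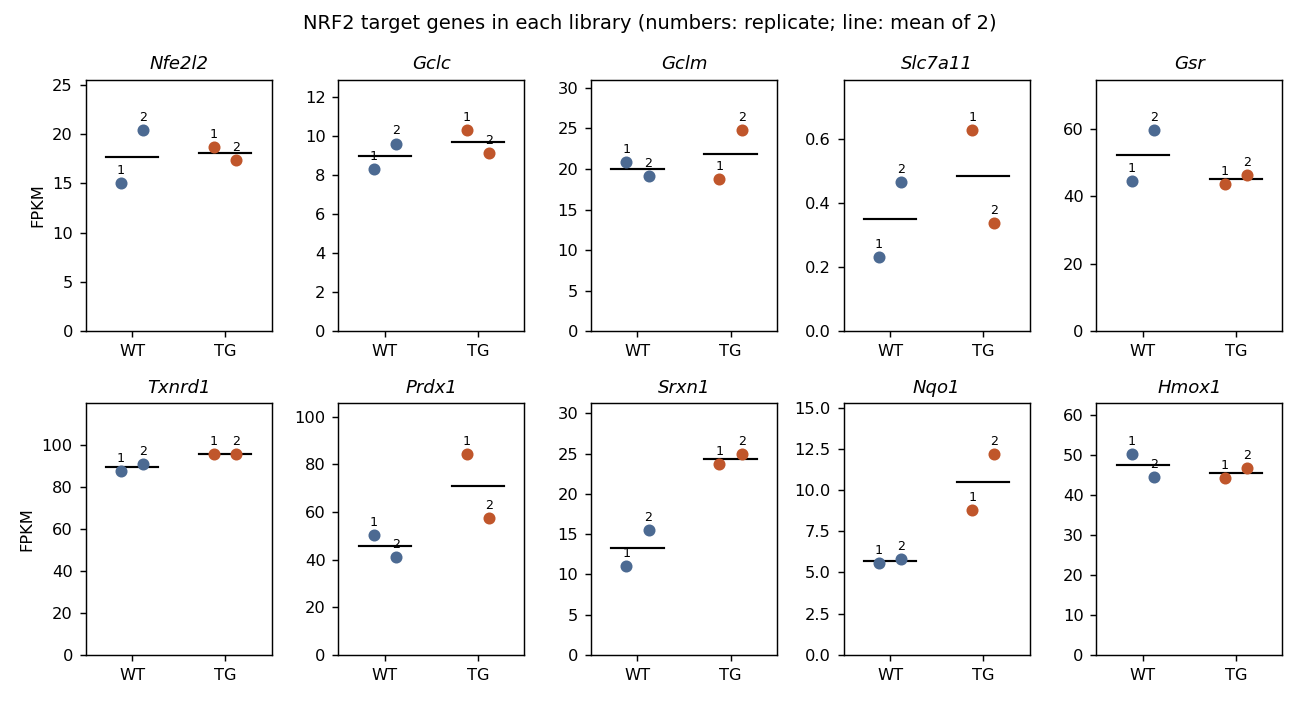
FPKM (vertical axes, each starting at 0 and on its own scale) of the 10 genes in the 2 WT and 2 TG libraries. Points are libraries, numbered by replicate, and the line is the mean of 2. *Srxn1*, *Nqo1* and *Prdx1* show both TG points above both WT points, while *Nfe2l2*, *Gclc*, *Gclm*, *Slc7a11*, *Gsr* and *Hmox1* overlap between genotypes.

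The plot of FPKM by library shows that the order of levels per length was similar in all 4 libraries. *Txnrd1* was first in each of them, *Slc7a11* was last in each, and *Prdx1*, *Hmox1* and *Gsr* took ranks 2 to 4. *Srxn1* moved from rank 7 in both WT libraries to rank 5 in both TG libraries. Averaged over the 4 libraries, *Txnrd1* lay at 92.4 FPKM, above 91.9% of the tested genes, and *Nqo1* at 8.09 FPKM, above 43.9% of them. *Gsr* and *Hmox1*, at 48.7 and 46.4 FPKM, differed by less than the spread of *Gsr* between libraries.

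*Nfe2l2* lies on chromosome 2 (positions here are in GRCm38, the same assembly as mm10) from 75675513 to 75704641 on the minus strand. Its level was 15.0 and 20.4 FPKM in the WT libraries and 18.7 and 17.4 FPKM in the TG libraries, from 521 to 1098 reads. Both TG values lie between the WT values. The log2 fold change was 0.04 with a standard error of 0.21 (adjusted p = 0.941 by limma), and its 95% confidence interval, from -0.43 to 0.50, corresponds to a ratio between 0.744 and 1.42.

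Glutathione is made from glutamate, cysteine and glycine, and its first step is catalyzed by glutamate-cysteine ligase, a pair of the catalytic subunit GCLC and the modifier subunit GCLM. *Gclc*, on chromosome 9 from 77754535 to 77794485, had 8.31 and 9.61 FPKM in WT, and 10.3 and 9.11 in TG. *Gclm*, on chromosome 3 from 122245557 to 122270732, had 20.8 and 19.1 FPKM in WT, and 18.8 and 24.8 in TG. For both subunits the genotypes overlapped, and for *Gclm* the TG libraries were at once the lowest and the highest of the 4. The log2 fold change was 0.11 for *Gclc* (95% confidence interval -0.36 to 0.58, adjusted p = 0.835) and 0.12 for *Gclm* (-0.33 to 0.57, adjusted p = 0.806). The modifier exceeded the catalytic subunit in every library, by 2.50 and 1.98 times in WT and 1.84 and 2.72 times in TG, as levels per length.

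*Slc7a11* encodes the light chain xCT of the cystine transporter that supplies cysteine for glutathione. Its level was 0.233 and 0.467 FPKM in WT, and 0.628 and 0.339 in TG, from 20 and 62 reads in WT and 68 and 34 reads in TG. The genotypes overlapped. When all genes above 0 were tested, its log2 fold change was 0.21 with an adjusted p of 0.762. Its partner chain *Slc3a2*, which also serves other amino acid transporters, was far more abundant, with 120 and 102 FPKM in WT, and 79.9 and 84.9 in TG (log2 fold change -0.42, adjusted p = 0.216).

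*Gsr* encodes glutathione reductase, which returns oxidized glutathione to its reduced form with NADPH. It lies on chromosome 8 from 33652523 to 33698163 and had 44.6 and 59.7 FPKM in WT, and 43.8 and 46.4 in TG. WT 2 stood above the other 3 libraries, and WT 1 lay between the TG libraries. The log2 fold change was -0.19 (95% confidence interval -0.62 to 0.24, adjusted p = 0.645).

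*Txnrd1* encodes the cytosolic thioredoxin reductase, a selenoprotein, and lies on chromosome 10 from 82833951 to 82897712. It had 87.4 and 90.9 FPKM in WT, and 95.6 and 95.7 in TG, from 3201 to 5152 reads. The genotypes did not overlap. The nearest TG and WT libraries were 0.07 apart on the log2 scale, about the distance of 0.06 between the WT libraries. The log2 fold change was 0.10 (95% confidence interval -0.27 to 0.47, adjusted p = 0.794), and the upper end of this interval corresponds to a 1.39-fold higher level.

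*Srxn1* encodes sulfiredoxin, the enzyme that repairs peroxiredoxins whose cysteine has been over-oxidized. It lies on chromosome 2 from 152105516 to 152111376 on the plus strand. Its level was 11.0 and 15.5 FPKM in the WT libraries and 23.7 and 25.0 FPKM in the TG libraries, from 278 and 603 reads in WT and 752 and 736 reads in TG. The TG libraries differed little from each other (0.08 on the log2 scale), the WT libraries differed by 0.47, and the gap between the lowest TG and the highest WT library was 0.60. In WT the mean was 13.2 ± 3.14 FPKM (SD, n = 2), and in TG it was 24.3 ± 0.919 FPKM (SD, n = 2). *Srxn1* rose by 0.87 on the log2 scale (95% confidence interval 0.40 to 1.34, standard error 0.21, adjusted p = 0.0487 by limma), close to the threshold. It was past the threshold under 3 of the 14 alternatives, over which the log2 fold change ranged from 0.64 to 1.11 and the adjusted p from 0.0193 to 0.184. With any 1 of the 4 libraries left out, the adjusted p was between 0.110 and 0.184.

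*Prdx1* encodes peroxiredoxin 1, an abundant cytosolic peroxidase that thioredoxin reduces and sulfiredoxin repairs. It lies on chromosome 4 from 116685544 to 116700822 on the plus strand. It had 50.3 and 41.0 FPKM in WT, and 84.5 and 57.5 in TG. TG 1 stood well above the other 3 libraries, and the 2 TG libraries differed by 0.55 on the log2 scale, more than the 0.19 between the nearest TG and WT libraries. The log2 fold change was 0.61 (standard error 0.22, 95% confidence interval 0.13 to 1.09), with an unadjusted p of 0.0177 and an adjusted p of 0.152 from limma. Without TG 1 it was 0.33, and without TG 2 it was 0.89.

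*Nqo1* encodes a quinone reductase that uses NADPH or NADH and is the target gene most often used as a marker of NRF2 activity. It lies on chromosome 8 from 107388225 to 107403206 on the minus strand. It had 5.57 and 5.84 FPKM in WT, and 8.79 and 12.2 in TG, from 74 and 120 reads in WT and 147 and 189 reads in TG. Both TG libraries were above both WT libraries, by 0.55 at the nearest, and the WT libraries were 0.06 apart. In WT the mean was 5.71 ± 0.191 FPKM (SD, n = 2), and in TG it was 10.5 ± 2.40 FPKM (SD, n = 2). Its log2 fold change was 0.81 (standard error 0.23, 95% confidence interval 0.29 to 1.32), with an unadjusted p of 0.00584 and an adjusted p of 0.0861 from limma, above the threshold. Over the 14 alternatives the log2 fold change ranged from 0.58 to 1.03 and the adjusted p from 0.0816 to 0.367. *Nqo2*, its paralog, had 6.05 and 5.86 FPKM in WT, and 6.95 and 6.31 in TG (adjusted p = 0.778).

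*Hmox1* encodes the inducible haem oxygenase, which opens the haem ring to biliverdin, carbon monoxide and iron. It lies on chromosome 8 from 75093621 to 75100589 and had 50.3 and 44.5 FPKM in WT, and 44.2 and 46.7 in TG. The genotypes overlapped, and the log2 fold change was -0.06 (95% confidence interval -0.45 to 0.33, adjusted p = 0.898). *Hmox2*, the constitutive enzyme, stood between 1.10 and 1.24 times the level of *Hmox1* in the 4 libraries.

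**Figure D2:**
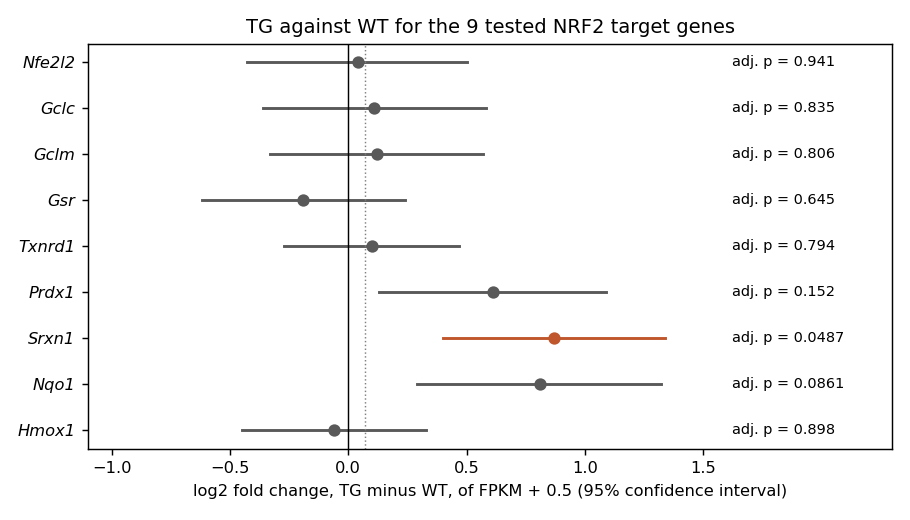
Log2 fold change between TG and WT (points) with its 95% confidence interval from limma (bars) for the 9 tested genes, with the adjusted p at the right. The dotted line is the median of all tested genes, 0.07. The intervals of *Srxn1*, *Nqo1* and *Prdx1* lie above 0 before adjustment, and only that of *Srxn1*, in orange, has an adjusted p under 0.05.

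The fold changes also moved with effective length, the number of positions in a gene at which a fragment can start. Among the 1153 tested genes with an effective length under 1000 bases, the median log2 fold change was 0.31, among the 2536 genes from 1000 to under 2000 bases it was 0.17, among those from 2000 to under 4000 bases 0.07, and among those of 4000 bases or more -0.04. Between the WT libraries alone, WT 2 lay below WT 1 by a median of 0.26 on the log2 scale for the shortest genes. *Srxn1* belongs to the genes from 2000 to under 4000 bases and *Nqo1* to those from 1000 to under 2000 bases. The effective length of *Prdx1* was found to be 634 bases or a whole multiple of it, which puts it with the shortest genes at the smallest value. When each library's trend with length was removed, an alternative chosen after seeing the data, the log2 fold change was 0.80 for *Srxn1* (adjusted p = 0.0855), 0.62 for *Nqo1* (adjusted p = 0.193) and 0.29 for *Prdx1* (adjusted p = 0.489). The value for *Prdx1* takes its effective length as 634 bases, although a multiple of that was not settled.

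**Figure D3:**
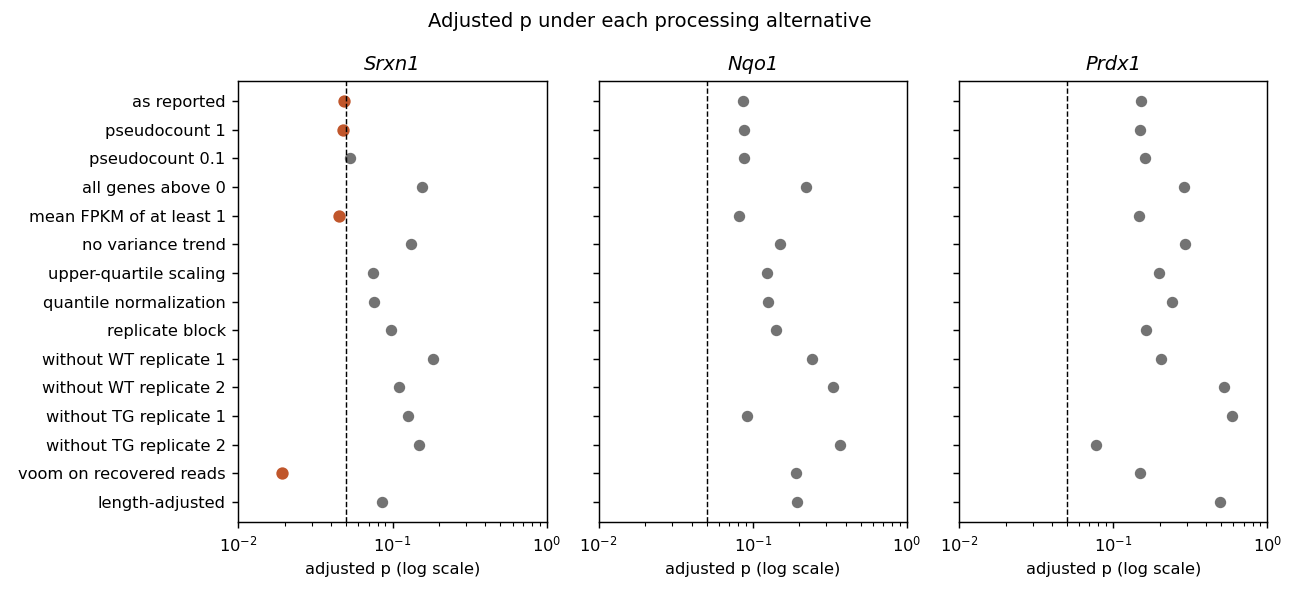
Adjusted p (horizontal, log scale) of *Srxn1*, *Nqo1* and *Prdx1* under the reported test and the 14 alternatives (rows). Orange points are under 0.05, which the dashed line marks. *Srxn1* lies under the line in the reported test and 3 alternatives, and *Nqo1* and *Prdx1* lie above it in all of them.

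The antioxidant response element was searched as TGACNNNGC on both strands in the 250 bases before the gene starts of RefSeq (GRCm38.p6), together with TGACTCA, the site of AP-1 factors, with which it can overlap. The promoter table holds 7 of the 10 genes, *Nfe2l2*, *Srxn1*, *Slc7a11*, *Gclm*, *Prdx1*, *Nqo1* and *Txnrd1*. TGACNNNGC was found for 4 of the 7, *Nfe2l2*, *Gclm*, *Txnrd1* and *Prdx1*, and in 11.5% of the 27025 genes of the table. TGACTCA was found for *Srxn1* and *Prdx1*, and in 5.16% of all genes. The 5 windows below are shown because they come from genes with larger (*Srxn1* and *Prdx1*) and smaller (*Gclm* and *Txnrd1*) log2 fold changes. Of these genes only *Srxn1* was called. The windows are written along the gene's strand, with the match in capitals, which is its reverse complement in each of the 5 windows. Not shown are the *Nfe2l2* match, 232 to 240 bases before the start and overlapping an annotated exon, and a further *Prdx1* match described below. Both of these lie on the gene's own strand.
*Prdx1*, chr4:116685451-116685489, plus strand: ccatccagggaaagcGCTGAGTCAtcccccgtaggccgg
*Srxn1*, chr2:152105406-152105444, plus strand: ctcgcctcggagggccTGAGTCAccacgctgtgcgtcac
*Srxn1*, chr2:152105463-152105501, plus strand: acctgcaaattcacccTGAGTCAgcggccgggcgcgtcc
*Gclm*, chr3:122245408-122245446, plus strand: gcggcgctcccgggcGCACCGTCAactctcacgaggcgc
*Txnrd1*, chr10:82859099-82859137, plus strand: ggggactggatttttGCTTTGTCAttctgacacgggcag

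The *Prdx1* match reads TGACTCAGC on its own strand, so it holds both motifs at once, 125 to 133 bases before the start. *Prdx1* holds a further TGACTCA 231 to 237 bases before the start. In *Srxn1* the letters TGACTCA lie 39 to 45 and 96 to 102 bases before the start, and TGACNNNGC was not found in this window. The window of *Nqo1*, with a log2 fold change of 0.81, held neither motif, while those of *Gclm* and *Txnrd1*, at 0.12 and 0.10, held TGACNNNGC. The *Txnrd1* match stands before 1 of its 3 listed starts. A match is a description of letters and not a measured binding site, no match says only that the letters are not in this window, and elements farther from the start were not searched.

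By limma, 0 of the 10 regulators of NRF2 passed the test in either direction, beside 4.13% of all tested genes. At an unadjusted p under 0.05 there was 1, beside 19.6% of all tested genes. By voom on the recovered reads *Maff* rose at an adjusted p under 0.05 (log2 fold change 0.69, adjusted p = 0.0486), beside 3.58% of all tested genes. *Keap1* had 20.6 and 14.1 FPKM in WT, and 17.4 and 22 in TG (log2 fold change 0.19, adjusted p = 0.702), and its ratio to *Nfe2l2* ran from 0.688 to 1.38 over the 4 libraries with overlapping genotypes. *Bach1*, a repressor that competes with NRF2 for its sites, had 5.53 and 4.41 FPKM in WT, and 5.92 and 5.97 in TG (log2 fold change 0.24, adjusted p = 0.630). *Mafg*, a partner of NRF2, had 19.8 and 10.2 FPKM in WT, and 15.9 and 13.6 in TG (adjusted p = 0.949). *Sqstm1*, whose protein p62 can take KEAP1 away from NRF2, had 229 and 196 FPKM in WT, and 249 and 266 in TG (log2 fold change 0.28, adjusted p = 0.432). Of the 10 regulators, all tested, the log2 fold changes ran from -0.43 to 0.72, with a median of 0.08. The highest was that of the small MAF gene *Maff*, named after its values were seen, with 14.9 and 12.8 FPKM in WT, and 21.6 and 24.7 in TG (adjusted p = 0.0680 by limma).

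Beyond these, 7 lists of the wider NRF2 pathway, the regulators among them, held 77 genes, of which 67 were tested. At an adjusted p under 0.05, 2 of the 67 rose by limma, *Gstm2* and *Mgst2*, and 0 fell, beside 2.59% of all tested genes that rose and 1.54% that fell. At an unadjusted p under 0.05 there were 17, beside 19.6% of all tested genes. By voom 4 of the 67 rose, *Gstm2*, *Sod1* (adjusted p = 0.0172), *Ftl1* (adjusted p = 0.0246) and *Maff*, beside 3.58% of all tested genes, and 1 fell, *Gsto1* (adjusted p = 0.00861), beside 4.40%. *Sod1*, cytosolic superoxide dismutase, and the glutathione transferase *Gsto1*, both named after their values were seen, had adjusted p-values of 0.138 and 0.0699 by limma. *Sod1* and *Ftl1* have effective lengths of 488 and 821 bases. They belong to the genes under 1000 bases, of which 8.50% rose by limma, and the voom fit did not remove the length trend. The share by voom was not worked out by length, and the part of the trend in these calls was not tested. By direction alone, 43 were higher and 24 lower in TG, with a median of 0.15, where 6623 of all tested genes were higher and 4901 lower. Of the 67, 22 were higher in TG without overlap of the genotypes and 9 lower, beside 30.2% and 20.3% of all tested genes.

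Of the 20 tested genes of glutathione synthesis and use, *Gstm2*, a mu-class glutathione S-transferase, had 4.79 and 7.05 FPKM in WT, and 15.1 and 19.5 in TG. It rose by 1.48 on the log2 scale (adjusted p = 0.00904 by limma, standard error 0.24). Its adjusted p ranged from 0.00815 to 0.0964 over the alternatives, and was 0.0783 without WT 1 and 0.0620 without WT 2. Reads of *Gstm2* may be shared with the near-identical genes of its cluster, where *Gstm1* had 41.9 and 36.6 FPKM in WT, and 47.7 and 39.4 in TG (adjusted p = 0.727). *Mgst2*, a microsomal transferase that also makes leukotriene C4, had 0 and 1 read in the WT libraries and 10 and 16 reads in the TG libraries. Its adjusted p was 0.0137 by limma, 0.0865 without WT 1, 0.110 without WT 2 and 0.204 by voom, and the ratio of reads per total between TG and WT was 27.3, with an exact 95% interval for counting error from 4.48 to 1118. Both genes are under 1000 bases in effective length, among which 8.50% of the tested genes rose. With the length trend removed, *Gstm2* stood at 1.23 on the log2 scale (adjusted p = 0.0490), just past the threshold, and *Mgst2* at 1.96 (adjusted p = 0.0538), no longer past it. *Gss*, glutathione synthetase, had 41.6 and 29.7 FPKM in WT, and 44.0 and 48.6 in TG (log2 fold change 0.39, adjusted p = 0.331). *Gsta1*, *Gsta2* and *Gsta3*, classical NRF2 targets of the liver, were listed at 0 in all 4 libraries.

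The other NRF2 lists gave no call by limma at an adjusted p under 0.05. Of the 10 thioredoxin and peroxiredoxin genes, 6 were higher and 4 lower, with log2 fold changes from -0.24 to 0.47, and 2 were at an unadjusted p under 0.05, beside 19.6% of all tested genes. *Txn1*, cytosolic thioredoxin, had 300 and 286 FPKM in WT, and 283 and 239 in TG (adjusted p = 0.658), and *Txnip*, its inhibitor, 4.66 and 5.07 FPKM in WT, and 3.32 and 4.91 in TG (adjusted p = 0.677). Among the 6 genes of NADPH production the median was 0.06, and *G6pdx*, the entry enzyme of the pentose phosphate pathway, had 61.0 and 69.4 FPKM in WT, and 60.2 and 62.1 in TG (adjusted p = 0.834). Of the 8 tested haem and iron genes, 4 were at an unadjusted p under 0.05 by limma, beside 19.6% of all tested genes. Their median log2 fold change was 0.27, beside 0.07 for all tested genes. The same counts were 1 of 4 for superoxide and peroxide removal, 1 of 6 for NADPH production and 2 of 9 for quinone and xenobiotic enzymes. The iron storage genes *Fth1* and *Ftl1* were higher in both TG than in both WT libraries, a pattern of 30.2% of all tested genes. *Ftl1* had 1288 and 965 FPKM in WT, and 1832 and 1608 in TG (log2 fold change 0.62, adjusted p = 0.142 by limma). *Fth1* had 655 and 691 FPKM in WT, and 1156 and 800 in TG (log2 fold change 0.52, adjusted p = 0.221). Of the quinone and xenobiotic enzymes, 4 of the 9 tested were higher in both TG libraries, beside 30.2% of all tested genes, among them the aldo-keto reductase *Akr1b8*, named after its values were seen, at 14.6 and 16.6 FPKM in WT, and 28.6 and 24.8 in TG (log2 fold change 0.76, adjusted p = 0.0563).

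ATF4 is the transcription factor of the amino acid and integrated stress response and shares targets with NRF2, *Slc7a11* among them. Of 8 genes of that response, 3 fell and 0 rose by limma at an adjusted p under 0.05, beside 1.54% of all tested genes that fell, and the median log2 fold change of the 8 was -0.49. By voom 4 fell, *Asns*, *Chac1*, *Trib3* and *Sesn2*, the last (adjusted p = 0.0496) named after its values were seen, beside 4.40% of all tested genes. *Asns*, asparagine synthetase, had 205 and 239 FPKM in WT, and 104 and 118 in TG (log2 fold change -0.99, standard error 0.18, adjusted p = 0.0139). *Chac1*, whose product degrades glutathione, had 27.4 and 26.4 FPKM in WT, and 15.9 and 11.0 in TG (fold change 0.501, adjusted p = 0.0301). *Trib3*, a pseudokinase that restrains ATF4, had 23.6 and 18.0 FPKM in WT, and 10.3 and 9.89 in TG (fold change 0.502, adjusted p = 0.0267). Without WT 1 or without WT 2 none of the 3 was past the threshold (adjusted p from 0.0590 to 0.213), without TG 1 *Chac1* was (adjusted p = 0.0221) and without TG 2 *Asns* was (adjusted p = 0.0311). In each of the 3, which the test had picked, the TG libraries lay below the WT libraries, as in 20.3% of all tested genes. None of the 3 was past the threshold with all genes above 0, no variance trend or the replicate block (adjusted p 0.054 to 0.127). After removal of the length trend the adjusted p-values were 0.0152, 0.0239 and 0.0184 for *Asns*, *Chac1* and *Trib3*. *Atf4* itself had 462 and 470 FPKM in WT, and 392 and 383 in TG (log2 fold change -0.26, adjusted p = 0.451).

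**Figure D4:**
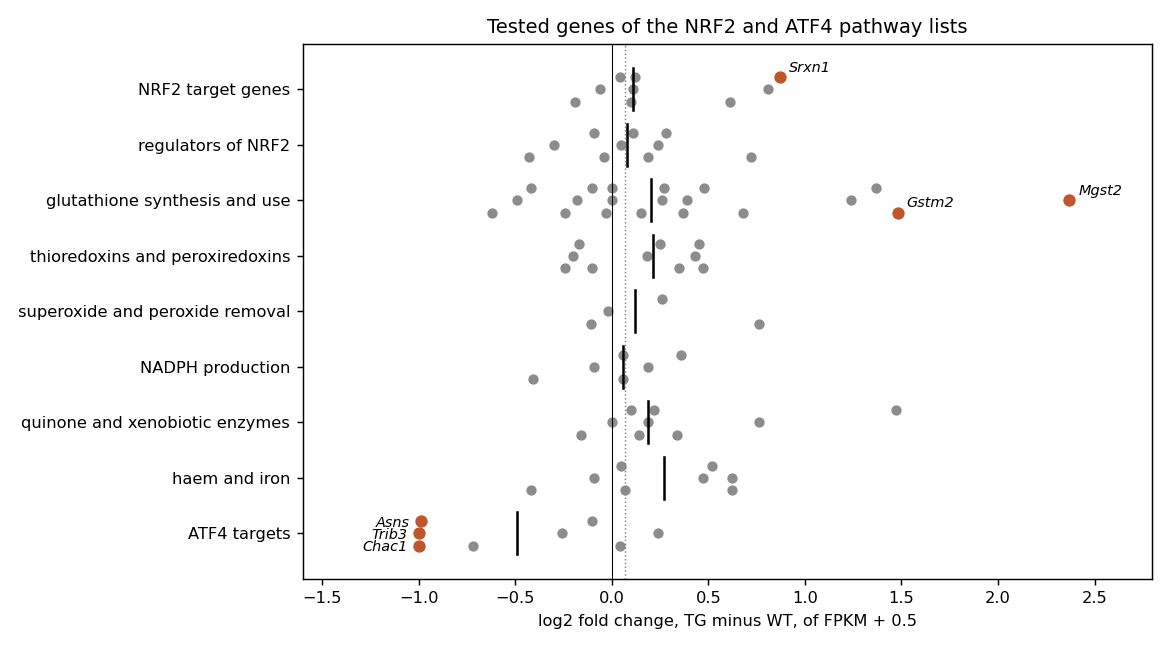
Log2 fold change between TG and WT of each tested gene (points) of the NRF2 target genes, the 7 lists of the wider NRF2 pathway and the ATF4 targets, with the median of each list (black bar) and of all tested genes (dotted line, 0.07). Orange points have an adjusted p under 0.05: *Srxn1*, *Gstm2* and *Mgst2* to the right and *Asns*, *Trib3* and *Chac1* to the left.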

How the data were processed

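The deposited values are FPKM, with 1 column per library and no pooling. The authors mapped the read pairs to mm10 using Rsubread and made FPKM from its gene counts. The versions and the gene annotation are not given in the sources used here, nor whether counting used strand. The authors' own test was DESeq on their counts, and it was not run here.

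Genotype was the single term of a linear model of log2(FPKM + 0.5), fitted by limma 3.58.1 (R 4.3.3) with variances moderated along a trend. Whole reads and library totals were worked out from the FPKM, in which a gene with 1 read fixes the product of its length and the total. The recovered reads sum to between 100.2% and 100.4% of the totals. A sum above 100% means that the recovered reads are not exact for every gene, and the voom values rest on them. Which genes are affected was not worked out. For 970 genes a common factor of reads and length was set from the exonic length in GENCODE (GRCm38), and for *Gclm* and *Prdx1* it could not be settled, so no reads are given for them. Intervals from reads cover counting error only. The fits were tested on simulated data.

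Alternatives tried were another pseudocount (1 or 0.1), another filter (a mean FPKM of 1 or more, or any value above 0), a fit with no trend of the variance, scaling to the upper quartile, quantile normalization, a block for the replicate number, voom on the recovered reads, and each library left out, where the lone library of a genotype is taken to vary like the other 2. Removal of the length trend was chosen after seeing the data. The genes and lists were chosen with earlier results of these data known. Named are the 10 genes, listed genes with an adjusted p under 0.05, 12 further listed genes whatever their values (*Keap1*, *Bach1*, *Mafg*, *Sqstm1*, *Txn1*, *Txnip*, *G6pdx*, *Fth1*, *Ftl1*, *Slc3a2*, *Gss* and *Atf4*) and *Xist*. Marker genes and any other gene, such as paralogs and genes listed at 0, were named after their values were seen.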

Additional observations from a re-analysis of the deposited data

How the results depend on the processing

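With 2 libraries per genotype, the 1 call among the NRF2 target genes, *Srxn1*, rests on the processing. The number called at an adjusted p under 0.05 stayed at 1 with a pseudocount of 1, a mean FPKM of at least 1 and voom on the recovered reads. It was 0 with a pseudocount of 0.1, all genes above 0, a fit with no trend of the variance, upper-quartile scaling, removal of the length trend and quantile normalization, and with each library left out. It was also 0 with the replicate block, but the replicate numbers share no deviations (correlation -0.0276 over genes) and are not taken as pairs. At a pseudocount of 0.1 *Srxn1* had an adjusted p of 0.0532, and the stricter thresholds called 0 of these genes in every setting. The cause of these losses was not tested.

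*Srxn1*, *Nqo1*, *Prdx1* and *Gclc* kept a positive log2 fold change in all 14 alternatives. *Nfe2l2* passed to -0.03 with upper-quartile scaling, -0.02 with quantile normalization, -0.04 with voom, and between -0.18 and 0.26 with a library left out (-0.18 without WT 1, -0.01 without TG 1). *Txnrd1* passed to -0.04 with quantile normalization and *Gclm* to -0.08 with the length trend removed, which takes its effective length as 1282 bases although a multiple of that was not settled. With a library left out, *Gclm* lay between -0.08 (without TG 2) and 0.31, *Gsr* between -0.40 and 0.02 (without WT 2) and *Hmox1* between -0.15 and 0.03 (without WT 1). None of these was past a threshold in either direction. *Slc7a11* rests on 20 to 68 reads a library. Over all tested genes, the 298 higher and 178 lower calls became 22 and 22 with all genes above 0, 153 and 101 with no trend of the variance, 114 and 64 with the replicate block, 413 and 507 with voom, and from 46 to 232 higher and from 20 to 135 lower with a library left out.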
